A study of Mus musculus with 9 samples.

Results

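Liver makes fatty acids from carbohydrate and stores them as triglyceride, and the genes described here encode that route and its control. The set holds 30 genes: enzymes and helpers of cytosolic fatty acid synthesis, elongases, desaturases, acyl-CoA synthetases, enzymes that join fatty acids to glycerol, 2 lipid droplet proteins and 4 transcription factors. Members were taken by gene symbol, and each of the 30 symbols matched 1 of the 54393 gene identifiers in the deposited table. RNA was sequenced from whole livers of C56Bl/6j mice in 9 libraries, 5 from control mice without antibiotics and 4 from mice given antibiotics that stay in the gut. Both groups ate AIN-76a, a purified diet rich in sucrose. The sources used here do not name the antibiotics or give the length of treatment, the age and sex of the mice or the hour of collection. The question put by the design is how liver transcripts differ when the gut microbiota is depleted.

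In the pathway, Acaca and Acacb encode acetyl-CoA carboxylases, which make malonyl-CoA, and Fasn encodes the synthase that builds palmitate from it. The elongase Elovl6 and the desaturase Scd1 turn palmitate into longer and monounsaturated fatty acids, while Fads1, Fads2, Elovl2 and Elovl5 serve polyunsaturated ones. In liver the transcription factor SREBP1, from Srebf1, follows insulin and the oxysterol receptors LXR (Nr1h2 and Nr1h3), and ChREBP, from Mlxipl, follows sugar. Both factors are known to raise transcription of many of the other members.

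Library totals ran from 15422891 to 59179622 estimated counts. Antibiotics library 5 was the deepest and the other 3 antibiotics libraries were shallower than every control. Levels are given in CPM, estimated counts scaled to a common library size by TMM factors. Hepatocyte markers summed to between 76222 and 90820 CPM in controls and between 77027 and 86967 CPM with antibiotics, and the exocrine pancreas genes Prss2, Ctrb1, Pnlip and Cel had 0 counts in every library. Log2 fold changes compare antibiotics with control, their errors are SEs from edgeR's quasi-likelihood fit over all genes, and adjusted p-values are Benjamini-Hochberg values over the 14873 genes tested. The threshold for passing was an adjusted p of 0.05. Because these are bulk samples, fewer cells of a type and less RNA per cell cannot be told apart.

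None of the 30 members passed, where 2.68% of all genes tested did (398 of 14873). By DESeq2 3 members passed (Srebf1, Lpin2 and Acsl3), where 6.56% of all genes did. By limma-voom 0 members passed, where 413 of all 14873 genes did. At an unadjusted p under 0.05 there were 8 members, 6 lower and 2 higher with antibiotics, where 18.5% of all genes reached that level. In no member were the 2 groups of libraries free of overlap, where 8.88% of all genes were. Fitted values lay below 0 in 20 members and above 0 in 10. Of all 14873 genes tested, 7645 lay below 0 and 7228 above. The median log2 fold change of the members was -0.17, and -0.11 without antibiotics library 5. Over all genes tested the median was -0.01, a value that TMM scaling keeps near 0. Exons of Me1, Pklr, Mid1ip1, Elovl6, Acsl5, Agpat2, Agpat3, Mogat1 and Mlxipl overlap a gene on the opposite strand, and those of Nr1h3 overlap Gm13783 on the same strand, so part of their counts is uncertain. All 30 members passed the filter on low counts, although Mogat1 did so with as few as 2 counts in a library.

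**Figure D1:**
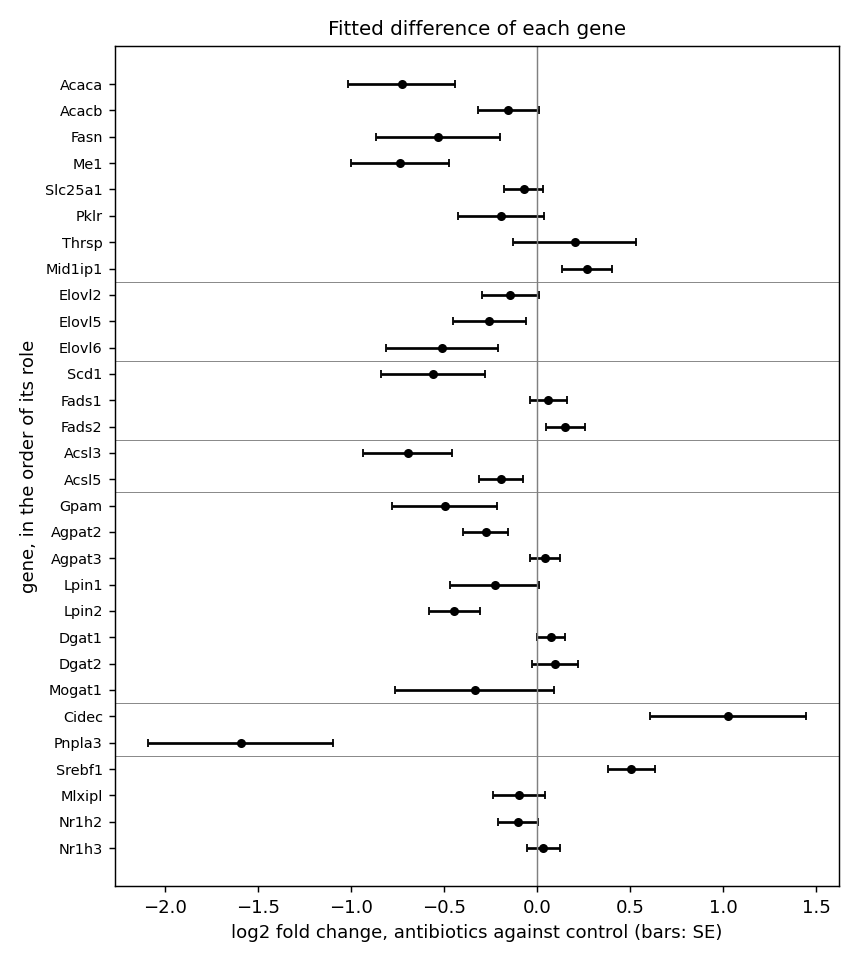
Log2 fold change of each of the 30 genes, antibiotics against control, on the x axis, with genes in the order of their roles on the y axis and bars of 1 SE. The lowest value is that of Pnpla3 at -1.59 and the highest that of Cidec at 1.03, and no gene passed the adjusted threshold.

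Promoters are shown for Fasn, for Gpam and Pnpla3, which were among the genes correlated with Fasn as described below, and for Srebf1. Srebf1 was the factor gene nearest to passing. Promoters of the other genes correlated with Fasn are not shown. RefSeq promoter sequences (GRCm38.p6) were found for 26 of the 30 genes. For genes with several start sites, the most upstream is given: Srebf1 has 3 starts in that table and Gpam has 2. Stretches before the other starts are not shown, and which start was used in these livers was not tested. The stretches are the 250 bases before the start site, read 5′ to 3′ on the gene's strand, at chr11:120824548-120824797 (minus strand) for Fasn, chr19:55127239-55127488 (minus) for Gpam, chr15:84167566-84167815 (plus) for Pnpla3 and chr11:60222582-60222831 (minus) for Srebf1. Capitals mark each CCAAT, the letters bound by the factor NF-Y, or its reverse complement.
Fasn: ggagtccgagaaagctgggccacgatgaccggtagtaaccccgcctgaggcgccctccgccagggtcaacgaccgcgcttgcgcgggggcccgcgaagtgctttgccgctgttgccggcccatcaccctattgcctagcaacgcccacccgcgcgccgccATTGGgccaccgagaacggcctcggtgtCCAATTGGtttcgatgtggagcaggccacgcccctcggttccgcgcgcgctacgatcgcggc
Gpam: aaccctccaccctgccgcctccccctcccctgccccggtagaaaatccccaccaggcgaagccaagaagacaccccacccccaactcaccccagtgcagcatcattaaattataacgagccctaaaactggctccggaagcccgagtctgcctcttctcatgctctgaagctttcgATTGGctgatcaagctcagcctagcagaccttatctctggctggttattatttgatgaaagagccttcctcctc
Pnpla3: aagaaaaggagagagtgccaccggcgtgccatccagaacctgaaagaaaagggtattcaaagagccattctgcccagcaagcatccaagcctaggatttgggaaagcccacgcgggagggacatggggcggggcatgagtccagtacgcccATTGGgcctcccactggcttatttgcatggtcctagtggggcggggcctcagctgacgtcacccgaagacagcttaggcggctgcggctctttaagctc
Srebf1: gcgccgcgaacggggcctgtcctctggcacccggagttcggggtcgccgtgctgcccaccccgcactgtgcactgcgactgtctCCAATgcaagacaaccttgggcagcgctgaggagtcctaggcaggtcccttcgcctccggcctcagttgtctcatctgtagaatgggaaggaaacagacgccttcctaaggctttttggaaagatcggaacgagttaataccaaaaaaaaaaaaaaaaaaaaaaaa

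The Fasn stretch holds 3 matches, whose first bases lie 90, 62 and 59 bases before the start, the last 2 on opposite strands and sharing 2 bases. Gpam has 1 match, 74 bases before its start, Pnpla3 has 1 at 99 and Srebf1 has 1 at 166. On either strand, CCAAT occurred in 40.5% of the 37 member promoters and in 33.8% of all 32851 promoters of that length. It was found in 14 of 26 member genes: Acacb, Acsl3, Acsl5, Elovl5, Fasn, Gpam, Lpin2, Me1, Mlxipl, Pklr, Pnpla3, Slc25a1, Srebf1 and Thrsp. Acaca and Elovl6, the members with the highest Pearson's r with Fasn, were not among them. An SREBP site spelled TCACNCCAC was found in 1 member promoter, that of Mlxipl, and in 1.05% of all. The E-box CACGTG was found in 4 member promoters (Elovl5, Lpin2, Mlxipl and Slc25a1) and in 6.02% of all. None of the 4 stretches printed above holds either of these motifs. A match describes letters in this window only.

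Srebf1 (ENSMUSG00000020538.15, chromosome 11, 60199089 to 60222581, minus strand, GRCm38) was the transcription factor gene nearest to passing. Its control libraries 1 to 5 measured 187, 126, 148, 127 and 119 CPM. Antibiotics libraries 1, 2, 3 and 5 measured 187, 188, 225 and 205 CPM. Of these, 3 were above every control and antibiotics library 1 was level with control library 1, so that the groups overlapped through that pair alone. Means were 142 ± 27.6 CPM (SD, n = 5) and 201 ± 17.8 CPM (SD, n = 4), a log2 fold change of 0.51 ± 0.13 (adjusted p = 0.0599). Without control library 1 the adjusted p was 0.0225, and in the other 8 fits with a library omitted it ran from 0.0721 to 0.162. DESeq2 gave 0.00666. Exons of Srebf1 overlap Rai1 on the opposite strand, and the gene counts do not separate the SREBP1a and SREBP1c transcripts.

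The other 3 factors differed between the group means by less than the SD of the controls. Mlxipl measured 237 ± 47.2 and 222 ± 20.99 CPM (SD, n = 5 and 4; log2 fold change -0.10 ± 0.14). Nr1h3, which encodes LXR alpha, measured 81.3 ± 9.51 and 83.3 ± 3.90 CPM (0.03 ± 0.09), and Nr1h2, which encodes LXR beta, 23.6 ± 3.31 and 21.99 ± 2.08 CPM (-0.10 ± 0.11). Their adjusted p-values were 0.766, 0.875 and 0.663. Srebf1 was thus the 1 factor gene of the 4 with an unadjusted p under 0.05.

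Among the 8 genes of cytosolic synthesis, 0 passed, 2 had an unadjusted p under 0.05 and 6 had values below 0, with a median log2 fold change of -0.17. Acaca (chromosome 11, 84129672 to 84401651) measured 721, 503, 299, 526 and 306 CPM in control libraries 1 to 5. With antibiotics it measured 228, 449, 236 and 225 CPM in libraries 1, 2, 3 and 5. In 3 antibiotics libraries Acaca lay below every control, and in antibiotics library 2 it lay among them. The group means were 471 ± 176 and 285 ± 110 CPM (log2 fold change -0.73 ± 0.29, adjusted p = 0.207).

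Me1 (chromosome 9, 86581371 to 86695953), the cytosolic malic enzyme that supplies NADPH, showed the same arrangement of libraries. Controls measured 1046.5, 1046.3, 598, 890 and 786 CPM and antibiotics libraries 373, 879, 488 and 358 CPM. Again 3 antibiotics libraries lay below every control, and library 2 was above 2 of them. The share of all genes tested with such an arrangement is not given here. The log2 fold change was -0.74 ± 0.26 (adjusted p = 0.162). Of the 9 fits with a library omitted, Me1 passed only in that without antibiotics library 2 (log2 fold change -1.10, adjusted p = 0.0284).

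Fasn (chromosome 11, 120805846 to 120824547) varied 3.16-fold among the controls alone, at 2439, 1503, 917, 1646 and 772 CPM. Antibiotics libraries measured 824, 1621, 813 and 770 CPM. The 3 low antibiotics libraries were close to the lowest control and 1 of them was below it. A log2 fold change of -0.53 ± 0.33 went with an adjusted p of 0.430. Acacb, the carboxylase linked to control of mitochondrial fatty acid uptake, measured 345 ± 71.0 and 310 ± 57.1 CPM (adjusted p = 0.667).

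The other 4 genes of the group feed or modulate synthesis. Pklr, liver pyruvate kinase and a ChREBP target, measured 614 ± 191 and 536 ± 147 CPM (log2 fold change -0.20 ± 0.23). Slc25a1, the mitochondrial citrate carrier, measured 220 ± 30.7 and 209 ± 12.7 CPM (-0.07 ± 0.10). Thrsp, the Spot 14 protein that responds to thyroid hormone and carbohydrate, ranged from 398 to 1337 CPM in controls and from 544 to 1100 CPM with antibiotics (0.20 ± 0.33). Its relative Mid1ip1, which promotes polymerisation of acetyl-CoA carboxylase, measured 31.4 ± 4.91 and 37.9 ± 6.49 CPM, above the control mean in 4 of 4 antibiotics libraries (0.27 ± 0.13, adjusted p = 0.306).

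**Figure D2:**
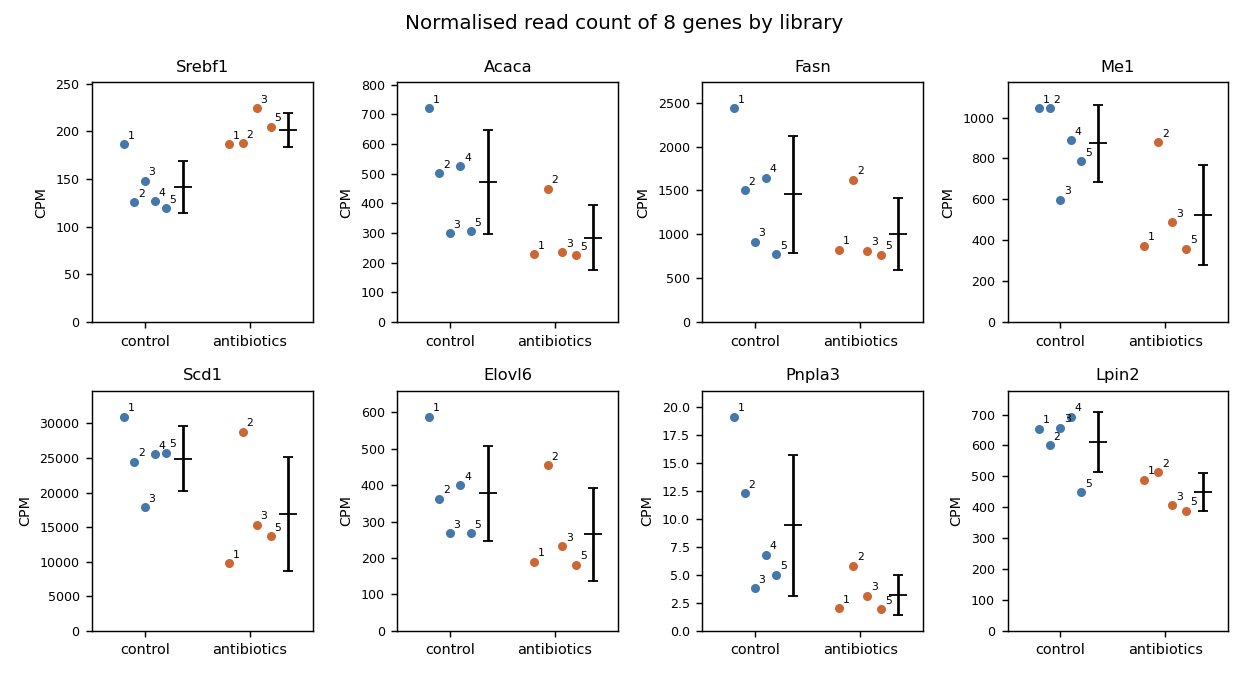
CPM (y axis, from 0) of 8 genes by group, each point a library with its replicate number, and beside each group its mean with bars of 1 SD (n = 5 control, n = 4 antibiotics). Antibiotics library 2 stands above the other 3 antibiotics libraries for Acaca, Fasn, Me1, Scd1, Elovl6, Pnpla3 and Lpin2, while for Srebf1 the antibiotics libraries lie between 187 and 225 CPM.

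The 3 elongase genes all had values below 0, with a median of -0.26, and 0 passed. Elovl6, which lengthens palmitate, measured 588, 364, 268, 400 and 268 CPM in controls and 190, 455, 232 and 182 CPM with antibiotics. As for Acaca, 3 antibiotics libraries were below every control and library 2 was not (log2 fold change -0.51 ± 0.30, adjusted p = 0.398). Elovl5 measured 891 ± 178 and 746 ± 222 CPM (-0.26 ± 0.20) and Elovl2 900 ± 166 and 815 ± 149 CPM (-0.14 ± 0.15).

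Desaturases split between Scd1 and the 2 Fads genes. Scd1 (chromosome 19, 44394455 to 44407879), the stearoyl-CoA desaturase that makes oleate, took between 0.970% and 3.05% of all counts in a library. It measured 30959, 24459, 17843, 25572 and 25790 CPM in controls. Antibiotics libraries measured 9772, 28809, 15361 and 13726 CPM, 3 of them below every control and library 2 above 4 of the 5 controls. The log2 fold change was -0.56 ± 0.28 (adjusted p = 0.311), and without antibiotics library 2 it was -0.94 (adjusted p = 0.0593). Fads1, the delta-5 desaturase, measured 794 ± 82.9 and 829 ± 62.9 CPM (0.06 ± 0.10), and Fads2, the delta-6 desaturase, 1308 ± 143 and 1453 ± 114 CPM (0.15 ± 0.10). No desaturase passed.

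Of the acyl-CoA synthetases, which activate fatty acids, Acsl3 had the larger difference. It measured 64.7, 34.0, 30.7, 35.8 and 25.0 CPM in controls and 18.4, 27.0, 25.2 and 23.4 CPM with antibiotics. Every antibiotics library was below the control mean, and 2 were below every control. Its log2 fold change was -0.69 ± 0.24 (adjusted p = 0.151, and 0.0411 by DESeq2). Utp14b, which shares exons with Acsl3 on the same strand, measured between 4.59 and 11.3 CPM, so part of the Acsl3 count is uncertain. Acsl5 measured 741 ± 74.2 and 648 ± 97.9 CPM (-0.19 ± 0.12, adjusted p = 0.415).

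Esterification genes act in sequence on glycerol 3-phosphate, and 0 of 8 passed, with 5 values below 0 and a median of -0.25. Gpam, the mitochondrial acyltransferase of the first step, measured 858, 579, 391, 462 and 281 CPM in controls and 318, 497, 370 and 275 CPM with antibiotics (-0.50 ± 0.28, adjusted p = 0.383). All 4 antibiotics libraries were below the control mean but 3 were inside the range of the controls. For the second step, Agpat2 measured 169 ± 28.3 and 140 ± 12.6 CPM (-0.27 ± 0.12, unadjusted p = 0.0446 and adjusted p = 0.257 by edgeR), and Agpat3 208 ± 14.0 and 214 ± 16.3 CPM (0.04 ± 0.08).

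The lipins remove the phosphate that precedes diacylglycerol. Lpin2 (chromosome 17, 71182560 to 71249817) measured 655, 602, 658, 693 and 448 CPM in controls and 490, 514, 406 and 388 CPM with antibiotics. Its antibiotics libraries were all below 4 of the 5 controls, and the overlap came from control library 5. The log2 fold change was -0.44 ± 0.14 (adjusted p = 0.107). Without control library 5 it was -0.54 (adjusted p = 0.0319), and DESeq2 gave an adjusted p of 0.0213 over all libraries. Lpin1, also known as a coactivator, ranged from 588 to 1017 CPM in controls and from 416 to 1094 CPM with antibiotics (-0.23 ± 0.24), the highest and the lowest library of all 9 both being antibiotics libraries.

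Genes of the final step to triglyceride had values close to 0. Dgat2 measured 490 ± 84.5 and 525 ± 49.9 CPM (0.10 ± 0.12), and Dgat1 18.0 ± 1.30 and 19.0 ± 0.576 CPM (0.08 ± 0.07), with adjusted p-values of 0.722 and 0.626. Mogat1, a monoacylglycerol acyltransferase, was near the limit of detection at 0.184 to 0.686 CPM in controls and 0.131 to 0.451 CPM with antibiotics. No difference in Mogat1 was detectable at this depth (-0.33 ± 0.43).

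The 2 lipid droplet genes had the largest fitted values of the 30, in opposite directions. Pnpla3 (ENSMUSG00000041653.5, chromosome 15, 84167837 to 84187236), a lipid droplet hydrolase and SREBP1 target, measured 19.1, 12.3, 3.83, 6.80 and 5.03 CPM in controls. With antibiotics it measured 2.03, 5.80, 3.15 and 1.95 CPM. Pnpla3 was below every control in 3 antibiotics libraries and above 2 controls in library 2. The means were 9.41 ± 6.31 and 3.23 ± 1.80 CPM, the controls alone spanned 4.99-fold, and the log2 fold change was -1.59 ± 0.50 (adjusted p = 0.113, 0.0632 to 0.274 over the fits with a library omitted). An exon of Pnpla3 overlaps Gm49513 on the same strand.

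Cidec (chromosome 6, 113424634 to 113435760), which enlarges lipid droplets and is abundant in fat tissue, measured 0.667, 1.18, 1.07, 1.27 and 3.56 CPM in controls and 3.14, 2.45, 2.10 and 4.40 CPM with antibiotics. Each antibiotics library was above 4 controls, and the overlap came from control library 5. The log2 fold change was 1.03 ± 0.42 (adjusted p = 0.217), and without control library 5 it was 1.55 (adjusted p = 0.0235). The 7 adipocyte markers summed to between 9.47 and 13.2 CPM in controls and between 10.7 and 15.97 CPM with antibiotics. Most of that sum came from Fabp4 and Adrb3. Control library 5 had the highest Cidec of the controls. Adipoq (0.147 CPM), Plin1 (0.220 CPM), Retn (0.184 CPM) and Cfd (1.03 CPM) were each at their highest control value there. Fabp4 (5.73 CPM) and Adrb3 (2.17 CPM) were at their lowest control value there, and so was the sum of the 7 markers (9.47 CPM). Adipoq had 0 counts in the other 4 controls. Cfd was above the control mean in 4 of 4 antibiotics libraries (log2 fold change 1.34 ± 0.77, adjusted p = 0.388). Among antibiotics libraries, Adipoq was at 0.939 CPM and Plin1 at 0.276 CPM in library 3, which had the lowest Cidec of its group, and Adipoq had 0 counts in the other 3. Lep had 0 counts in 8 of the 9 libraries. The part of these markers in the Cidec values was not tested.

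Levels between genes can be compared per length, as CPM per kilobase of the median coding transcript. On that scale Scd1 was highest in controls at 5158, followed by Thrsp at 570, Fads2 at 415, Elovl5 at 320 and Me1 at 266. The lowest were Mogat1 at 0.375 and Cidec at 0.911, followed by Pnpla3 at 7.17. Dgat2, at 217, was above Dgat1, at 9.56. Thrsp and Fads2 do not differ beyond their spread, since Thrsp varied 3.36-fold among controls.

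**Figure D3:**
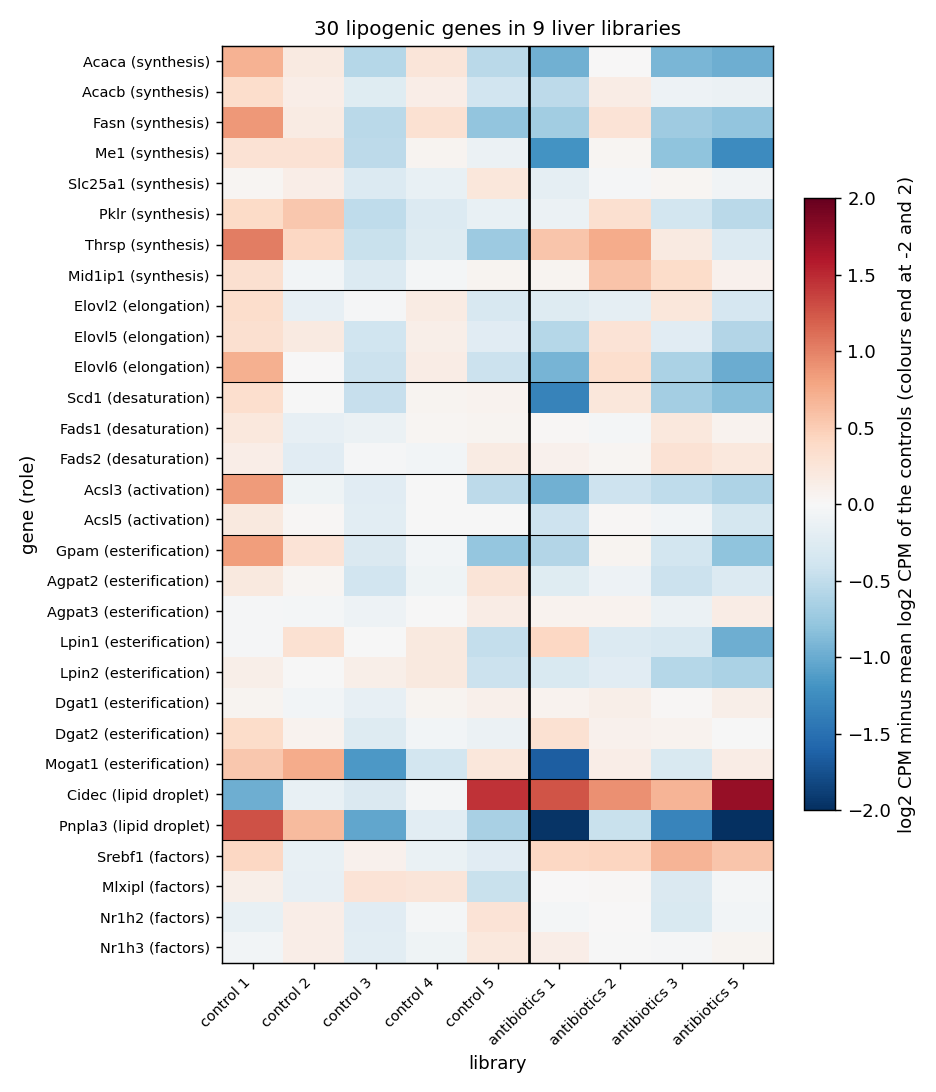
Each cell is the log2 CPM of a gene (y axis, with its role) in a library (x axis) minus the mean log2 CPM of the controls, and the vertical line separates controls from antibiotics. Control library 1 lies above the control mean in 25 of 30 genes and antibiotics library 2 in 21, and the row of Srebf1 is red in all 4 antibiotics libraries.

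Part of the members varied together between libraries within each group, and others did not follow them. Control library 1 had the highest CPM of the 5 controls in 17 of 30 members, and control library 3 had the lowest in 16. Control library 5 had the highest in 8 members and the lowest in 11. The same counts over all genes are not given here. Antibiotics library 2 had the highest of the 4 antibiotics libraries in 19 members, and antibiotics library 5 the lowest in 13. The median member stood 0.32, 0.05, -0.27, -0.01 and -0.13 from the control mean on the log2 scale in control libraries 1 to 5, and -0.21, 0.05, -0.26 and -0.27 in antibiotics libraries 1, 2, 3 and 5. Over all genes tested the same medians lay within 0.01 of 0. TMM scaling keeps the bulk of genes near 0, so these medians do not measure how unusual the members' shifts were. Transcripts of the mitochondrial genome, whose level can follow RNA quality, stood 0.02, -0.12, 0.32, 0.02 and -0.24 from the control mean in the controls and 0.28, 0.50, 0.46 and -0.09 with antibiotics, and their part in the result was not tested. Together the members took from 2.07% to 4.73% of the counts of a library.

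To see which genes moved together, the log2 CPM of Fasn was correlated with that of each of the other 29 members over the 9 libraries, a comparison chosen after the values were seen. By exact permutation tests, two-sided and adjusted over the 29 relations, 8 were positive with an adjusted p under 0.05: Acaca, Elovl6, Gpam, Elovl5, Acacb, Pnpla3, Acsl3 and Me1. Acaca had Pearson's r = 0.96 (permutation p = 0.000590, adjusted p = 0.00570) and Spearman's rho = 0.87 (permutation p = 0.00451, adjusted p = 0.0342). For Elovl6 the values were r = 0.95 (permutation p = 0.000350, adjusted p = 0.00507) and rho = 0.92 (permutation p = 0.00131, adjusted p = 0.0190). Pearson's r for the other 6 was between 0.80 and 0.94, and by Spearman's rho 7 members passed. On deviations from the group means, with libraries permuted within groups, 9 members passed. Acaca then had r = 0.99 (exact permutation p = 0.00313, adjusted p = 0.0302), and the ninth was Thrsp (r = 0.84, adjusted p = 0.0481). The share of all genes tested that followed Fasn as closely is not given here. These counts therefore do not set the members apart from other genes.

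Without control libraries 1 and 4, the 2 farthest from the median of Fasn, r was 0.92 for Acaca, 0.90 for Elovl6 and 0.59 for Acsl3, and with 7 libraries 0 of 29 passed the adjusted threshold by the exact permutation test (unadjusted p = 0.0171, 0.00853 and 0.181). Points share the scaling of their library, which acts on all genes alike. At the other end, Cidec had r = -0.74 with Fasn (permutation p = 0.0271, adjusted p = 0.0714; rho = -0.77, permutation p = 0.0214, adjusted p = 0.0689). Fads1, Dgat1 and Nr1h2 had r of 0.01 each.

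**Figure D4:**
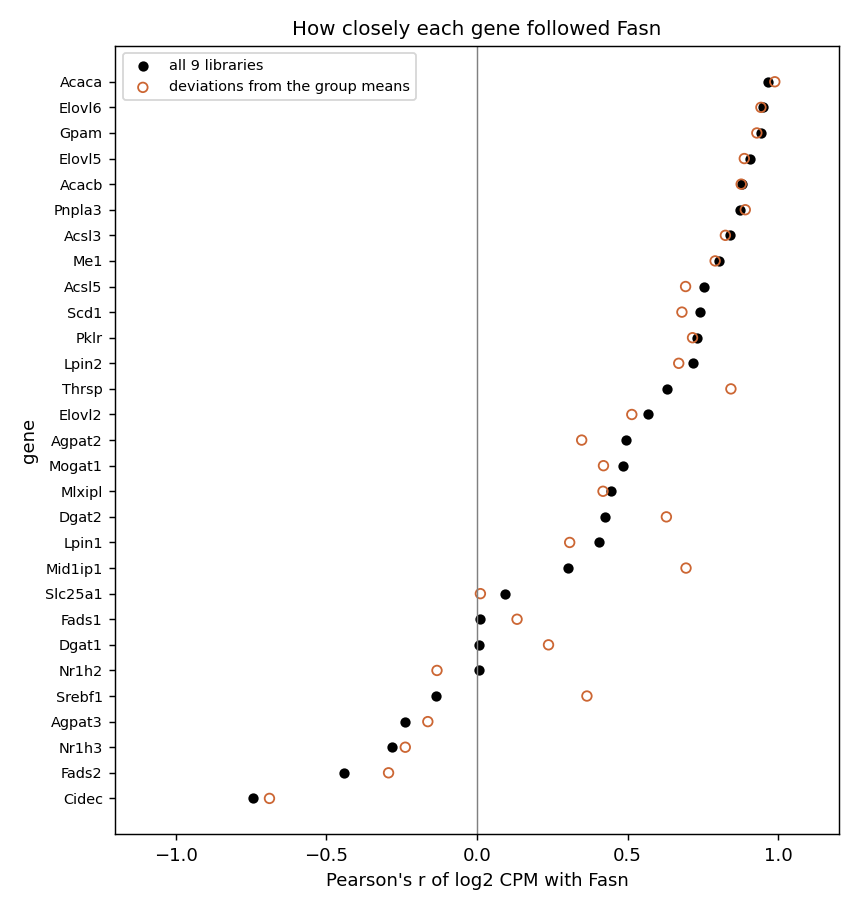
Pearson's r of the log2 CPM of each gene (y axis, in order of r) with that of Fasn on the x axis, over all 9 libraries (filled points) and after removing the group means (open points). Acaca leads at 0.96 and Cidec ends the order at -0.74, and the open point of Srebf1 is at 0.36 where its filled point is at -0.14.

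Known pairs of a transcription factor and its target were compared in the same way. Srebf1 was set against Fasn, Acaca, Scd1, Elovl6, Fads1, Fads2, Gpam and Pnpla3, Mlxipl with Pklr, Fasn, Me1 and Thrsp, and Nr1h3 with Srebf1, over the 9 libraries. Of these 13 relations 0 had an adjusted p under 0.05 by exact permutation tests, and 0 had an unadjusted p under 0.05 for Pearson's r. The closest was Srebf1 with Fads2 (r = 0.66, permutation p = 0.0502, adjusted p = 0.653; rho = 0.60, permutation p = 0.0968, adjusted p = 0.629). Without control libraries 2 and 5 its r was 0.91 (permutation p = 0.00456, adjusted p = 0.0593), and within the groups 0.48 (permutation p = 0.297). Srebf1 with Fasn had r = -0.14 (permutation p = 0.716, adjusted p = 0.916; rho = -0.15, permutation p = 0.708), -0.33 without the same 2 libraries and 0.36 within the groups (permutation p = 0.430). A p above the threshold does not show that factor and target were unrelated.

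Beyond the members, 55 other genes of the pathway were listed: further synthetases, acyltransferases, droplet proteins, SREBP processing factors and LXR targets. Of these 53 were tested, 3 rose and 1 fell by edgeR, beside 2.68% of all genes. By limma-voom 4 passed, beside 413 of all 14873 genes tested. By DESeq2 5 passed, beside 6.56% of all genes. At an unadjusted p under 0.05 there were 14, beside 18.5% of all genes, and the groups did not overlap in 6, beside 8.88% of all genes. The list median was 0.01. Mogat2 and Cidea were not tested, with at most 17 and 6 counts in a library.

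The rises included 2 enzymes of glycerolipid synthesis on the endoplasmic reticulum. Gpat4 (chromosome 8, 23171265 to 23208346), an acyltransferase of the same first step as Gpam, measured 146, 138, 186, 151 and 190 CPM in controls and 243, 209, 261 and 225 CPM with antibiotics. All antibiotics libraries were above all controls (log2 fold change 0.53 ± 0.11, adjusted p = 0.0357). Agpat1 (chromosome 17, 34604262 to 34613449), of the same second step as Agpat2, measured 6.35, 7.50, 6.84, 6.99 and 6.94 CPM in controls and 9.48, 9.20, 8.23 and 10.3 CPM with antibiotics, again with no overlap (0.43 ± 0.09, adjusted p = 0.0393). Gpat4 rose where Gpam had -0.50, and Agpat1 rose where Agpat2 had -0.27, although Gpam and Agpat2 did not pass and the differences were not tested. Of their relatives, Gpat3 had 0.64, Agpat3 0.04, Agpat5 0.11 and Agpat4 -0.26, and none of these passed.

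With a library omitted, Gpat4 passed in 3 of 9 fits (control 3, control 5 or antibiotics 2 omitted), and its adjusted p was 0.0670 to 0.107 in the other 6. Agpat1 passed in 1 of 9, with control 5 omitted, and had 0.0536 to 0.124 in the other 8. Its call also ended with no filter on low counts, after thinning and with the replicate block. Exons of Agpat1 overlap Egfl8 on the opposite strand.

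Fads6 (chromosome 11, 115279622 to 115297663), a member of the fatty acid desaturase family, measured 127, 117, 136, 124 and 116 CPM in controls and 157, 153, 174 and 166 CPM with antibiotics. Its groups did not overlap, and the log2 fold change was 0.39 ± 0.07 (adjusted p = 0.0217). The call ended without antibiotics library 1, 3 or 5 (adjusted p from 0.0670 to 0.0769). Elovl3 (chromosome 19, 46131897 to 46135694), an elongase of very long saturated and monounsaturated fatty acids, was the 1 gene of the list to fall, by 0.72 ± 0.16 on the log2 scale (adjusted p = 0.0388). It measured 311, 304, 249, 295 and 404 CPM in controls and 172, 225, 217 and 145 CPM with antibiotics, with no overlap. Elovl3 passed with control 3, control 5 or antibiotics 2 omitted and had 0.0645 to 0.116 in the other 6 fits, and 0.102 with the replicate number as a block. Its exons overlap Pitx3 on the opposite strand.

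Next in order of p were G6pdx and Insig2. G6pdx, the first enzyme of the pentose phosphate pathway and a source of NADPH like Me1, measured 48.6, 36.4, 16.3, 34.0 and 34.8 CPM in controls and 6.34, 25.1, 15.7 and 11.8 CPM with antibiotics. Here too 3 antibiotics libraries were below every control and library 2 was above 1 of them (log2 fold change -1.21 ± 0.36, adjusted p = 0.0932, and 0.0441 without control library 3). Insig2, which holds the SREBP complex in the endoplasmic reticulum, measured 212, 220, 173, 265 and 215 CPM in controls and 127, 218, 123 and 106 CPM with antibiotics. It showed the arrangement of Acaca and Me1, with library 2 among the controls (-0.60 ± 0.19, adjusted p = 0.130, 0.0171 without antibiotics library 2 and 0.0318 by DESeq2). Whether that arrangement was more common in this pathway than over all genes was not tested.

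**Figure D5:**
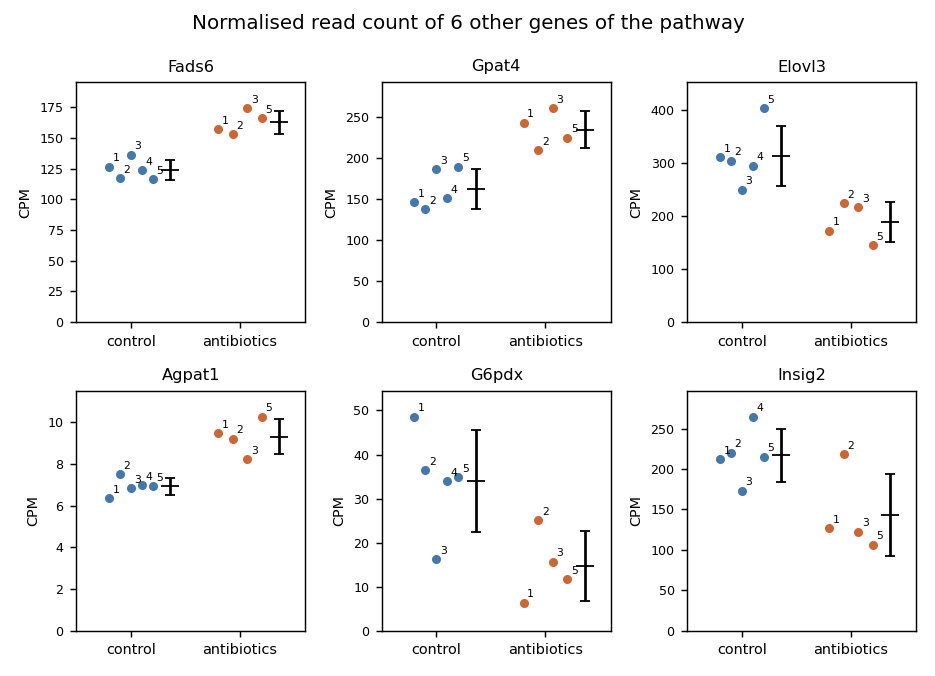
CPM (y axis, from 0) by group for the 6 other genes of the pathway with the smallest p, each point a library with its replicate number, and beside each group its mean with bars of 1 SD (n = 5 control, n = 4 antibiotics). The groups do not overlap for Fads6, Gpat4, Elovl3 and Agpat1, and overlap for G6pdx and Insig2.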

How the data were processed

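The table for the 9 mouse liver libraries holds estimated counts that the authors deposited, and the submitters' processing notes name Salmon and GRCm38. Libraries came from a stranded mRNA kit, per the labels' protocols. The sources used here give neither Salmon's version, nor the annotation release, nor the use of strand. All deposited counts were whole numbers (tolerance 1e-09) and were used as they stood. Identifiers matched GENCODE M21 (54393 of 54393), which gave symbols, positions and lengths.

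Genes were filtered with filterByExpr (minimum count 10, total 15), scaled by TMM and tested by quasi-likelihood in edgeR 4.0.16 in R 4.3.3, with group as the only term, Benjamini-Hochberg adjustment and a threshold of 0.05. DESeq2 1.42.0 and limma-voom 3.58.1 were alternatives, as were other scalings, filters, thinning to the smallest total and omission of each library. The script was tested on simulated data. Log2 CPM used a prior count of 2. Close copies were transcripts with at least 95% identity over 200 nt by BLAST+. Promoters came from RefSeq.

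The members and lists were chosen with earlier results of these data known. Named were all members, the 6 other pathway genes with the smallest p, which include all that passed, and markers where a result touched them. No pair of libraries within a group agreed within sampling noise (lowest chi-square per degree of freedom 20.2). Nothing in the labels ties each library to its own mouse, so the spread behind the p-values may be technical.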

Additional observations from a re-analysis of the deposited data

Results flagged for a closer look

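In 4 of the 72 groups of libraries looked at (36 genes, 2 groups each) 1 library stood apart, by a gap to its neighbour that filled most of the group's range. Chance gives about 5% of groups. Acaca at 449 CPM and Fasn at 1621 CPM in antibiotics library 2 were above the other 3 antibiotics libraries, with gaps of 0.953 and 0.936 of the range. Acsl3 at 64.7 CPM in control library 1 was above the other controls (0.728), and Cidec at 3.56 CPM in control library 5 was above the other controls (0.791).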

How the results depend on the processing

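Members that passed numbered 0 under TMM, RLE and upper-quartile factors, limma-voom, no filter, a filter at 1 CPM, thinning, library sizes without the 10 most abundant genes and the replicate block, 3 with DESeq2 (Srebf1, Lpin2 and Acsl3) and 0 to 2 without 1 library. The median log2 fold change of the members stayed below 0 in all these fits, from -0.23 to -0.11. Other pathway genes that passed numbered 2 with the replicate block (Fads6 and Gpat4) and 0 to 4 without 1 library (1 without control library 1, 2 or 4, and 0 without antibiotics library 1, 3 or 5), and were otherwise 3 to 5. Over all genes 398 passed, 976 with DESeq2, 179 with the replicate block and 36 to 455 without 1 library: 451 and 455 without control library 3 or 5, 144 to 216 without control library 1, 2 or 4 or antibiotics library 2, and 36 to 56 without antibiotics library 1, 3 or 5. Nr1h3 changed sign without control library 3, and its log2 fold change ran from -0.0141 to 0.0874 over the fits without 1 library. No other named gene changed sign. Correlations with Fasn that passed fell from 8 to 0 with 7 libraries, without control libraries 1 and 4. Whether this came from the smaller number of libraries or from the omission of those libraries was not tested. Deviations of libraries with the same replicate number had correlations of -0.00, -0.06, 0.03 and 0.10 for numbers 1, 2, 3 and 5. For numbers 3 and 5, but not 1 and 2, each library correlated best with its own number. The numbers were not taken as pairs, although these values do not settle whether they are. Me1 has 3 close copies, of which Gm7329 reached 72.9 CPM, and the copies of Acaca, Pklr, Mid1ip1 and Elovl6 reached at most 4.17 CPM.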
